A study of Mus musculus with 12 samples.

Results

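The comparison described here is the change in RNA within the floxed mouse embryonic stem cell (mESC) lines 15.10 and 16.9 when 4-hydroxytamoxifen (OHT) is used to delete Rif1. Its members are 4 of the 12 libraries of the series: 2 of Rif1F/F mESC before deletion and 2 of the same lines after 2 days of OHT, matched by line. Every gene that passed a low-count filter was tested, 17115 of 24391 symbols in the table. All 4 lines of the study are female, come from a cross of C57BL/6J-129/SvJ with Mus musculus castaneus, and carry Rs26+/CreERT, a Cre recombinase at Rosa26 that is active once OHT is given. Controls therefore carry the Cre too. The 2 Rif1F/F libraries without OHT are called F/F, and the 2 with OHT are called KO. The submitters' titles of the F/F libraries hold both KO and WT, and they were read as undeleted because their source is labelled as before deletion. Lines 5.3 and 5.16 are Rif1+/+ with the same Cre (WT), sampled as mESC without OHT and after 2 days of OHT. They serve here as the measure of change between the same conditions without a floxed allele. The remaining 4 libraries, embryoid bodies (EB) of 2 days of differentiation after OHT, enter the low-count filter, the scaling, the estimate of spread and a few values. The mESC grew in fetal bovine serum with leukemia inhibitory factor (LIF) and inhibitors of MEK and GSK3, 2 kinases of the MAPK and Wnt pathways.

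The first part of each description label, read here as a flow cell name, was 1 value for all libraries before deletion and another for all mESC libraries after OHT. Within the floxed lines, deletion, OHT and flow cell cannot be told apart. Nor can OHT and flow cell within the WT lines. The WT lines had the same OHT and the same pair of flow cells, so WT values or the difference between the floxed and the WT change are given beside the main results. Each line gave 1 library per condition, and nothing in the labels says that a line was sampled from more than 1 culture.

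RIF1 is a large chromatin protein that binds protein phosphatase 1, sets the time at which domains of the genome replicate, and, with 53BP1, limits the resection of broken DNA ends. In mESC it also lies at telomeres and heterochromatin and takes part in the choice of the X chromosome to be silenced. Mouse ES cells hold germline genes silent by DNA methylation and by a Polycomb complex called PRC1.6, while a small share of the cells in a culture passes through a state that resembles the embryo at the two-cell stage.

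Total counts were 39816300 and 42000230 in the F/F libraries (lines 15.10 and 16.9) and 29505686 and 32848254 in the KO libraries. In the WT lines they were 37195345 and 34583317 before OHT and 64808897 and 52351634 after it. WT mESC after OHT replicate 1 stood apart from the other mESC libraries, with 0.869% of its counts in Lars2 and a median of 12.7 CPM over the replication-dependent histone genes. Levels are CPM, counts scaled to a common library size, after TMM normalization, given for line 15.10 and then line 16.9. Log2 fold changes are KO minus F/F, ± their standard error (SE), from edgeR's quasi-likelihood test, with adjusted p after Benjamini-Hochberg over all genes tested and a threshold of 0.05. A gene that passed is said to have risen or fallen. CPM takes no account of gene length, so levels are compared only within a gene. Fewer cells that express a gene and less RNA per cell cannot be told apart in these bulk libraries. The summed level of 8 ES cell markers was 3661 and 4063 CPM in F/F and 4258 and 4486 CPM in KO. The 6 fibroblast markers summed to 4.74 and 4.15 CPM in F/F and to 5.52 and 7.303 CPM in KO. Of these Col3a1, Lum and Postn were at or near 0, Col1a1 stood at 2.71 and 2.34 CPM before and 2.51 and 3.98 CPM after and did not pass (edgeR adjusted p = 0.29), and Thy1 rose from 0.978 and 0.699 to 2.08 and 2.03 CPM (edgeR adjusted p = 1.7e-04).

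Rif1 itself fell in both lines. It stood at 1172.1 and 1171.9 CPM before and 702.0 and 661.5 CPM after, a log2 fold change of -0.78 ± 0.08 (edgeR adjusted p = 1.2e-06), and both KO libraries lay under both F/F libraries. In the WT lines the level was 1537.0 and 1751.5 CPM before and 1605.4 and 1455.3 CPM after OHT, a change of -0.10 ± 0.08 that did not pass (edgeR adjusted p = 0.31), and the floxed change was below the WT change by -0.68 ± 0.11 (edgeR adjusted p = 1.5e-03). Before OHT both F/F libraries were already under both WT libraries. The files count reads per gene, so they do not show whether the remaining reads come from the exons that Cre removes.

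In all, 7231 genes changed between F/F and KO, 42.2% of those tested, with 3697 higher (21.6%) and 3534 lower (20.6%). The change was at least 2-fold in 794 of the higher and 971 of the lower genes. Over all genes tested 81.4% had the same sign in both lines, and the changes of the 2 lines had a Pearson r of 0.77 across genes, which share their libraries and are not independent replicates. The count fell to 3800 without the F/F library of line 15.10, to 3950 without the KO library of that line and to 4598 without the KO library of line 16.9. With the F/F library of line 16.9 left out it was 5401.

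**Figure D1:**
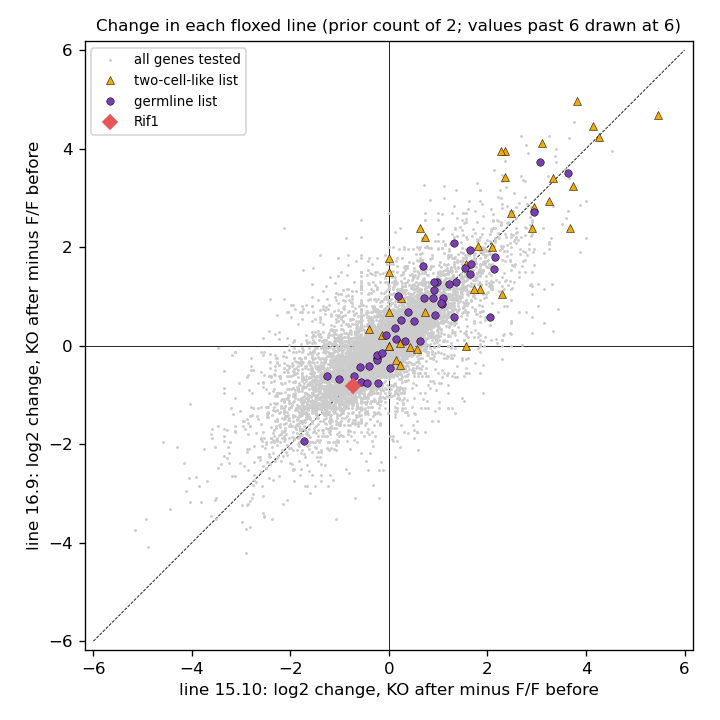
Each point is a gene, with its log2 change from F/F to KO in line 15.10 on the horizontal axis and in line 16.9 on the vertical axis, both from CPM with a prior count of 2. Purple circles are the 48 germline genes measured, orange triangles the 38 two-cell-like genes and the red diamond Rif1. Most points lie along the dashed line of equal change.

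Many genes also changed in the WT lines after OHT, 8183 in all (47.8%), 4129 of them higher (24.1%) and 4054 lower (23.7%). Across genes the floxed and the WT changes, which share no library, had a Pearson r of 0.63, although both sets run between the same pair of flow cells. Of the 3697 genes that rose in the floxed lines, 2381 rose, 114 fell and 1202 did not pass in WT. Of the 3534 that fell, 2302 fell, 55 rose and 1177 did not pass in WT. The change differed between floxed and WT lines for 1300 genes (7.60%), with 733 above the WT change (4.28%) and 567 below it (3.31%). Of the genes that rose in the floxed lines 477 were also above the WT change, and of those that fell 291 were also below it.

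That count of differences is the least settled number here. It lay between 400 and 762 with 1 floxed mESC library left out and between 554 and 2551 with 1 WT mESC library left out. With only the 8 mESC libraries fitted it was 516.

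**Figure D2:**
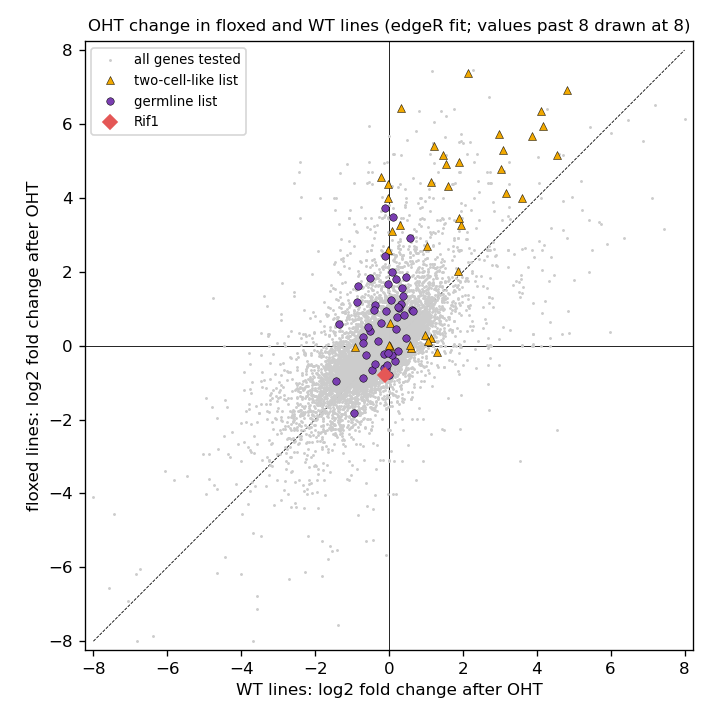
Each point is a gene, with its log2 fold change after OHT in the WT lines on the horizontal axis and in the floxed lines on the vertical axis, colours as in the plot of the 2 lines. Germline genes above the dashed line of equal change cluster near 0 in WT, while two-cell-like genes spread to the right as well as upwards.

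Germline genes rose in the floxed lines where most did not rise in WT. Of 48 measured members of the germline list, which holds genes of meiosis, of the piRNA pathway and of germ cell identity, 26 rose and 12 fell, against 21.6% and 20.6% of all genes tested. Their median log2 fold change was 0.70, against -0.0050 over all genes, and with 1 floxed library left out 24 to 25 rose and 8 to 9 fell. In the WT lines 11 rose and 14 fell, against 24.1% and 23.7% of all genes tested, with a median of -0.07. Among all genes tested 4.28% were above the WT change and 3.31% below it. The change in floxed lines was above the WT change for 25 members, or 20 to 22 with 1 floxed and 22 to 28 with 1 WT library left out, and below it for 5. Without WT mESC after OHT replicate 1, the library that stands apart, it was above WT for 26. In all, 22 members both rose and were above WT, with a median change of 1.29 that their selection in part fixes.

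The promoters of these 22 genes were searched for a motif, and some are printed. The 22 were picked for rising and for being above WT, so their common direction is fixed by that choice. The motif CACGTG, an E-box that MGA and MAX of the PRC1.6 complex bind, was searched in the 250 bases before each RefSeq gene start. It reads the same on both strands. A match says only that these letters are in the window. The motif, the set of genes and the promoters printed were all chosen after the changes had been seen, so no test was made. Of the 22 genes 18 have a promoter in the RefSeq table, and 10 of the 18 hold CACGTG (55.6%), against 5 of 23 other measured germline members (21.7%), 8.11% of the promoters of genes tested and 6.05% of all promoters in the table. Of the 5 others with CACGTG, Sycp3, Hormad1, Tdrd9 and Fkbp6 fell in the floxed lines, and Stag3 did not pass. Those that fell hold 2 matches each. The other members that fell, Smc1b, Tdrd12, Prdm1, Hsf2bp, Dmc1, Hormad2, Kit and Tex14, hold none. CACGTG was thus not limited to members that rose. The motif TCCCGC, a core of E2F sites, was in 4 of the 18 (22.2%), in 12 of the 23 (52.2%) and in 27.8% of the promoters of genes tested, counting both strands. Neither motif contains the other. Shown here are 4 promoters with the motif, in capitals, and those of Dazl and Asz1, 2 of the strongest members, which hold none, on RefSeq's GRCm38.p6, 5′ to 3′ on the gene's strand.

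Slc25a31, chr3:40708621-40708870, plus strand: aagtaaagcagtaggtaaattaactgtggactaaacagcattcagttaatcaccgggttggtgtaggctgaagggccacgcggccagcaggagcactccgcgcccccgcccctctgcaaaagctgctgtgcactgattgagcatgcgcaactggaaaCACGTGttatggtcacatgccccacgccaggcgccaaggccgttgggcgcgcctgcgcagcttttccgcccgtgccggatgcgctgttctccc

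Sycp1, chr3:102936101-102936350, minus strand: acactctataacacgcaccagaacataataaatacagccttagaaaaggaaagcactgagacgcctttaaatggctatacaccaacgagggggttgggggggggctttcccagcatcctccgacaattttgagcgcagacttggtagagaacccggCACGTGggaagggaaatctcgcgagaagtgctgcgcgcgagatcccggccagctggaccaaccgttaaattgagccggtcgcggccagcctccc

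Taf7l, chrX:134476491-134476740, minus strand: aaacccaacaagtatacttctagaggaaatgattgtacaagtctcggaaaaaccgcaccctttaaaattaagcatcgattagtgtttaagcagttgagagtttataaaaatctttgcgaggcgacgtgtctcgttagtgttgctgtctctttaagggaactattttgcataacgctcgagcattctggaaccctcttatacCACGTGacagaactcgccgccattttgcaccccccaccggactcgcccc

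Piwil1, chr5:128735996-128736245, plus strand: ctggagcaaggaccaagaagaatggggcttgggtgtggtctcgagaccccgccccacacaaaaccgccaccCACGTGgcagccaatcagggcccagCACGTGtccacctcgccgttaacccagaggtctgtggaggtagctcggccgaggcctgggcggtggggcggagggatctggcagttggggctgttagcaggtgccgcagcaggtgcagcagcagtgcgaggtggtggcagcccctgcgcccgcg

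Dazl, chr17:50293621-50293870, minus strand: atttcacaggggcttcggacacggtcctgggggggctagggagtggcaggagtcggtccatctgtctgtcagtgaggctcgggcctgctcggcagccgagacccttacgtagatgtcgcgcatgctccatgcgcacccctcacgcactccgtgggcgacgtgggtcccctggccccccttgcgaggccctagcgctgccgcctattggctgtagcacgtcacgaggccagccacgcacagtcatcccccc

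Asz1, chr6:18109062-18109311, minus strand: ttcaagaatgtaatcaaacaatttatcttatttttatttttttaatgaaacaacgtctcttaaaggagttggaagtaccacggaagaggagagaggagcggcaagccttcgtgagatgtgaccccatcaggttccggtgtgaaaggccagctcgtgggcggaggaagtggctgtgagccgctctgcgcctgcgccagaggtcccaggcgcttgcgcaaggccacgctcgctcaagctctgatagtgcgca

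Dazl, which encodes an RNA-binding protein needed for germ cell entry into meiosis, stood at 97.04 and 84.9 CPM before and 307.7 and 267.8 CPM after, a log2 fold change of 1.66 ± 0.08 (edgeR adjusted p = 3.2e-10), higher in both lines, with no overlap between the groups. In WT it was 642.4 and 681.7 CPM before and 608.1 and 687.2 CPM after OHT, and both KO libraries were under every WT library. Sohlh2, a germ cell transcription factor that was not on the list, stood at 58.5 and 44.1 CPM before and 153.0 and 142.8 CPM after (1.54 ± 0.09). Its KO level lay within the range of the WT lines, 163.8 and 142.5 CPM before and 131.9 and 131.8 CPM after. The synaptonemal complex gene Syce1 stood at 9.29 and 9.21 CPM before and 41.4 and 32.1 CPM after, and Slc25a31, a testis ADP/ATP carrier, at 0.367 and 0.434 CPM before and 5.16 and 5.45 CPM after. Asz1, of the piRNA pathway, stood at 0.538 and 0.289 CPM before and 4.895 and 4.44 CPM after, with WT libraries at 12.6 and 11.98 CPM before OHT. In all 5 both KO libraries were above both F/F libraries, as in 36.4% of all genes tested.

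In 20 of the 22 both F/F libraries lay under both WT libraries before deletion, as in 33.2% of all genes tested. The 22 were chosen for rising more than in WT, which favours a low start, so nothing is read from that count. Of the 22, both KO libraries were under both WT libraries after OHT in 14 and above them in 6. Syce1 was among those above, with WT libraries at 12.03 and 11.5 CPM after OHT. Both KO EB libraries were above both KO mESC libraries in 18 of the 22, as in 43.9% of all genes tested.

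Other members that rose and were above WT include the piRNA pathway genes Piwil1 (1.296 and 1.54 CPM before and 5.82 and 4.65 CPM after) and Piwil2 (19.7 and 14.3 CPM before and 36.7 and 27.9 CPM after), Sycp1 (4.303 and 3.11 CPM before and 8.17 and 7.64 CPM after) of the synaptonemal complex, and the X-linked Taf7l (2.86 and 2.098 CPM before and 9.06 and 8.26 CPM after), a TFIID subunit of germ cells. Pet2 rose from 0.709 and 0.747 CPM to 5.79 and 5.18 CPM. Tdrd12, a Tudor gene of the piRNA pathway, went the other way, from 77.2 and 78.9 to 45.1 and 45.3 CPM (-0.79 ± 0.07, edgeR adjusted p = 2.4e-07), with the WT lines at 116.9 and 123.1 CPM before and 119.7 and 120.3 CPM after. Its difference from the WT change was -0.79 ± 0.10. Smc1b, a meiotic cohesin, fell from 79.7 and 65.8 to 24.1 and 17.2 CPM, and in WT by -0.93. Of the 12 members that fell, 5 also fell in WT and 5 were below the WT change.

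**Figure D3:**
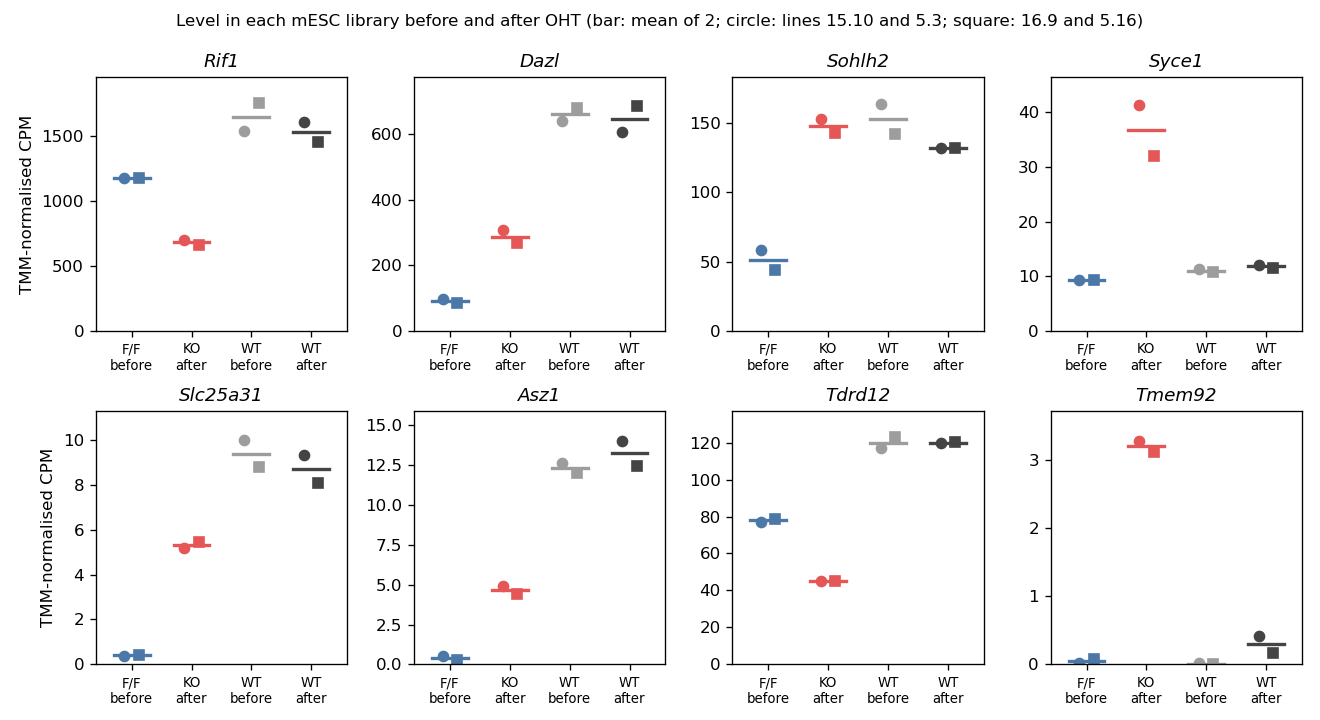
Each panel gives the level of 1 gene in TMM-normalised CPM in each of 8 mESC libraries, F/F before, KO after, WT before and WT after OHT, with a bar at the mean of the 2 libraries of each group. Rif1 and Tdrd12 are lower in both KO libraries than in both F/F libraries, and the 6 other genes are higher.

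Mga, which encodes the E-box binding scaffold of PRC1.6, fell from 920.8 and 849.7 to 660.9 and 621.3 CPM (-0.47 ± 0.08, edgeR adjusted p = 1.6e-04). Its difference from the WT change did not pass (-0.31 ± 0.11, edgeR adjusted p = 0.094). Of 17 measured genes of PRC1.6 and related germline repressors 6 rose and 4 fell, against 21.6% and 20.6% of all genes tested. Their median was 0.03 (-0.01 to 0.09 with 1 floxed library left out, so its sign is not settled). Then 2 to 5 rose and 1 fell with 1 floxed library left out. E2f6 rose to 41.6 and 39.5 CPM from 28.7 and 28.8 CPM.

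Genes of the two-cell-like state rose from levels close to 0. Of all genes tested 21.6% rose and 20.6% fell in the floxed lines. Of 45 listed genes 38 passed the low-count filter, which KO EB libraries can also satisfy. Of these 24 rose and 0 fell, or 18 to 21 with 1 floxed library left out. The fitted median of 4.07 rests in part on genes with no counts before deletion, and with each of the 14 such genes at the bound set by a floor of 3 counts per library it was 1.86. In the WT lines 14 rose and 1 fell, against 24.1% and 23.7% of all genes tested. For the difference from WT the shares over all genes tested were 4.28% above and 3.31% below. The change was above the WT change for 4 members (1 to 3 with 1 floxed library left out) and below it for 2. Tmem92 stood at 0.0245 and 0.0723 CPM before and 3.27 and 3.11 CPM after, and the WT lines at 0.0264 and 0 CPM before and 0.4097 and 0.173 CPM after. Its log2 fold change in WT was 4.16 (edgeR adjusted p = 3.7e-04). The difference of Tmem92 from the WT change did not pass (edgeR adjusted p = 0.64). Of the 24 that rose, 16 were still under 1 CPM in both KO libraries. Usp17le had 3 counts before and 104 after over both libraries, a ratio of 45.6 with a 95% counting interval of 15.2 to 225. Zscan4d had 3 and 50 counts, a ratio of 21.9 (7.08 to 110), and Dux had 3 and 58, a ratio of 25.4 (8.27 to 127). Zfp352 had no count before and 17 after, at least 3.75-fold higher against the floor. These intervals cover counting error only. At least 10% of 50-base words were shared with another gene in 30 of the 38 members, so their counts may have been split among copies. Dux had no value for this share and is not among the 30. Both KO EB libraries were above both KO mESC libraries in 35 members, as in 43.9% of all genes tested, and the filter favours members that are high in EB.

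The rule for the largest rises among genes of at least 1 CPM on average named 10 genes. Beside Tmem92, Slc25a31 and Asz1 these were Mageb4 (0.2201 and 0.0964 CPM before and 3.37 and 2.68 CPM after), Mmp16 (0.196 and 0.121 CPM before and 2.55 and 2.68 CPM after), Chit1 (0.2201 and 0.121 CPM before and 2.75 and 2.43 CPM after), Pdha2 (0.196 and 0.145 CPM before and 2.55 and 2.53 CPM after), 1700018B24Rik (0.196 and 0.0964 CPM before and 2.08 and 1.94 CPM after), Rhox13 (0.758 and 0.796 CPM before and 9.59 and 10.05 CPM after) and 4930550L24Rik (3.77 and 4.24 CPM before and 48.2 and 45.3 CPM after). Rhox13 is an X-linked homeobox gene of germ cells, Pdha2 a testis pyruvate dehydrogenase subunit, Chit1 a chitinase and Mmp16 a metalloproteinase. All 10 had both KO libraries above both F/F libraries, as in 36.4% of all genes tested. Being chosen for the largest rises favours this, so nothing is read from it. Of the 50-base words of Mageb4, 50.1% are shared with another gene.

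The largest falls were of Zmynd10, Card14, Gm5148, Trim72, Apol8, Egr1, Egr2, Tnfrsf13c, Trim50 and C030034L19Rik. All but Egr1 and Egr2 also fell in WT, by log2 fold changes from -1.78 (Tnfrsf13c) to -4.13 (Gm5148). Among these genes only Egr1 had a difference from the WT change that passed. Zmynd10, of the ciliary dynein assembly, went from 2.57 and 1.54 to 0.0992 and 0.154 CPM. Egr1, the immediate-early zinc finger factor, went from 24.99 and 41.98 to 3.31 and 3.11 CPM (-3.35 ± 0.54, edgeR adjusted p = 9.7e-05), and Egr2 from 3.77 and 5.67 to 0.4300 and 0.555 CPM. In the WT lines Egr1 varied between replicates, 16.1 and 34.8 CPM before and 28.3 and 4.63 CPM after, and its difference from the WT change (edgeR adjusted p = 0.046) did not pass with only the 8 mESC libraries (0.17), with the 1 CPM filter (0.073), with upper-quartile scaling (0.054) or by DESeq2's Wald test (0.23). The size of that difference was -2.48, but -0.66 without WT mESC after OHT replicate 1 (edgeR adjusted p = 0.35) and -1.02 without WT mESC before deletion replicate 1 (0.27). Fos likewise went from 88.04 and 105.0 to 14.7 and 14.5 CPM, with WT libraries at 80.3 and 126.2 CPM before and 76.8 and 24.5 CPM after. Its difference of -1.55 was -0.47 without WT mESC after OHT replicate 1 and -0.56 without WT mESC before deletion replicate 1, and passed in neither. Card14, C030034L19Rik and Nusap1 overlap genes of the other strand, and no source used here states whether counting used strand.

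Of 10 measured genes of RIF1 and its partners 3 rose and 4 fell, against 21.6% and 20.6% of all genes tested. Besides Rif1, Fam35a (Shld2 of the shieldin complex, which acts with RIF1 at breaks) fell from 55.9 and 53.2 to 38.5 and 32.9 CPM. WT libraries were at 42.9 and 44.2 CPM before and 45.5 and 43.00 CPM after, and the floxed change was below the WT change by -0.64 (edgeR adjusted p = 2.1e-03). Paxip1, the break-repair protein PTIP, rose from 80.5 and 83.8 to 113.8 and 113.8 CPM, and rose in WT by 0.43. Of the difference calls that this rule named, Optn (autophagy receptor optineurin) had the smallest p below WT: 27.5 and 27.00 CPM before and 8.43 and 9.21 CPM after, against 45.5 and 56.98 CPM before and 53.9 and 55.1 CPM after in WT. Nusap1, of the mitotic spindle, fell from 153.9 and 145.7 to 71.6 and 67.5 CPM, with a WT change of -0.18 and a difference of -0.92.

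Core pluripotency genes mostly rose, as they did in WT. Among all genes tested 21.6% rose and 20.6% fell in the floxed lines, and 24.1% and 23.7% in WT. The floxed change was above the WT change for 4.28% of all genes tested and below it for 3.31%. Of 14 core genes 9 rose and 2 fell (6 to 9 and 1 to 2 with 1 floxed library left out), and in WT 10 rose and 1 fell. Pou5f1 stood at 705.3 and 786.2 CPM before and 932.6 and 973.2 CPM after, and Sox2, which fell, at 490.2 and 567.3 CPM before and 386.8 and 395.0 CPM after. The naive list gave 10 higher and 6 lower of 25 (7 to 9 higher and 2 to 4 lower with 1 floxed library left out). Zfp42 (Rex1) rose from 137.1 and 171.5 to 315.8 and 304.0 CPM and was above the WT change, and Tcl1 rose from 22.3 and 22.4 to 35.1 and 34.8 CPM, with WT at 134.9 and 137.6 CPM before and 138.7 and 140.0 CPM after. Klf4 and Socs3 fell, and fell in WT too. In WT the naive list gave 13 higher and 4 lower, and the formative and primed list, given next, 7 and 8. Of 22 formative and primed epiblast genes 10 rose and 4 fell (8 to 10 and 1 to 4 with a floxed library left out), and 6 were above the WT change (4 to 7, and 5 to 9 with 1 WT library left out). Lefty1, a Nodal antagonist, rose from 15.8 and 23.7 to 56.2 and 68.7 CPM, Lefty2 from 94.5 and 133.8 to 208.0 and 225.2 CPM and N-cadherin Cdh2 from 6.55 and 6.100 to 20.5 and 20.2 CPM. Lefty1 and Lefty2 share 17.9% and 11.95% of their 50-base words with another gene.

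LIF and STAT3 targets fell more often than they rose, 10 lower and 2 higher of 19, at a background of 20.6% lower and 21.6% higher. In WT 10 fell and 5 rose. With 1 floxed library left out 6 to 7 fell. Socs3, a feedback inhibitor of STAT3, stood at 99.95 and 95.00 CPM before and 51.4 and 56.5 CPM after. Pim3 stood at 251.9 and 261.0 CPM before and 158.1 and 170.6 CPM after. In WT Socs3 changed by -0.71 and Pim3 by -0.85. The integrated stress response gave 12 lower and 4 higher of 25 (8 to 9 lower with 1 floxed library left out) and p53 targets 16 lower and 7 higher of 38 (10 to 13 lower). In WT the stress response gave 8 lower and 6 higher, and p53 targets 13 and 9. Atf3 fell from 16.7 and 17.4 to 4.895 and 4.93 CPM, Nupr1 from 58.9 and 47.5 to 18.7 and 20.8 CPM and Ddit3 from 15.3 and 12.5 to 5.19 and 5.49 CPM; WT fell for all of these. Rrm2b, a p53-induced ribonucleotide reductase subunit, fell from 55.2 and 51.8 to 22.4 and 21.6 CPM. In WT Rrm2b changed by -0.91, and Ldha of glycolysis, given below, by 1.20. Trp53inp1 fell from 486.1 and 442.9 to 284.3 and 265.1 CPM and was below the WT change by -0.74. Of the MAPK feedback genes 6 rose and 7 fell of 24, or 4 to 6 higher and 4 to 7 lower with 1 floxed library left out, with 8 and 9 in WT. Of 19 Wnt targets 5 rose and 2 fell (3 to 6 higher and 1 to 2 lower with 1 floxed library left out, 7 and 2 in WT), with Ccnd1 (cyclin D1) from 32.8 and 34.8 to 68.7 and 66.8 CPM above a WT change of 0.10. In glycolysis 11 of 24 rose and 6 fell, with 12 and 6 in WT (10 to 11 higher and 2 to 3 lower with 1 floxed library left out), with Ldha at 192.0 and 256.6 CPM before and 464.1 and 506.7 CPM after.

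Lineage lists had shares called close to the 42.2% of all genes tested. Primitive endoderm gave 3 higher and 6 lower of 22, trophoblast 2 and 4 of 15, mesendoderm 2 and 5 of 16, and neuroectoderm 3 and 2 of 14. In WT these lists gave 5 and 11, 3 and 6, 1 and 4, and 1 and 7. With 1 floxed library left out the counts were 3 higher and 2 to 4 lower, 1 to 4 higher and 4 lower, 1 to 2 higher and 2 to 3 lower, and 2 to 3 higher and 0 to 2 lower. Gata2, a trophoblast transcription factor, fell from 53.5 and 47.1 to 14.9 and 17.2 CPM, less than in WT (-2.53). Tubb3 rose from 4.43 and 6.17 to 32.98 and 29.1 CPM, and Lamb1, of basement membrane laminin, from 89.4 and 80.7 to 159.6 and 166.1 CPM. In WT Tubb3 rose by 1.91 and Lamb1 by 0.30, and both floxed changes were above the WT change. The list of fibroblast and stroma genes held 5 higher and 3 lower of 18, or 3 to 4 higher and 0 to 3 lower with 1 floxed library left out, and 6 members were above the WT change. The count of 6 was lower whenever 1 floxed library was left out. Among all genes tested 4.28% were above the WT change. Vim stood at 39.7 and 54.8 CPM before and 102.8 and 112.1 CPM after. Chromatin lists gave for PRC2 and canonical PRC1 10 higher and 6 lower of 28, for DNA methylation 6 and 3 of 17, and for H3K9 methylation, HP1 and KAP1 8 and 3 of 29. For the H3K9 list the floxed change was above WT for 0 members and below it for 5, against 4.28% and 3.31% of all genes tested. That count of 5 was lower whenever 1 floxed library was left out, and moved both ways with 1 WT library left out. In WT these chromatin lists gave 11 and 7, 6 and 2, and 18 and 3. With 1 floxed library left out these became 6 to 9 higher and 5 to 6 lower, 3 to 5 higher and 1 to 3 lower, and 4 to 5 higher and 0 to 1 lower. Dnmt3l, a cofactor of de novo methylation, rose from 42.6 and 42.1 to 84.7 and 82.7 CPM, and rose in WT by 1.30. Phf19, a PRC2 cofactor, fell from 15.2 and 9.02 to 4.796 and 4.19 CPM.

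For the lists that follow, the shares over all genes tested were 21.6% higher and 20.6% lower in floxed lines. In WT they were 24.1% and 23.7%. For the difference from WT they were 4.28% above and 3.31% below. Among genes of DNA replication 14 of 40 rose and 5 fell, against 26 and 2 in WT. Double-strand-break repair gave 10 higher and 4 lower of 30, interferon and RNA sensing 10 and 4 of 31, and clustered protocadherins 6 and 1 of 23. In WT these 3 gave 14 and 4, 7 and 5, and 2 and 2. With 1 floxed library left out replication gave 6 to 14 higher and 2 to 3 lower, repair 2 to 6 higher and 0 to 2 lower, interferon 6 to 9 higher and 1 to 3 lower, and protocadherins 2 to 4 higher and 1 lower. Replication-dependent histones rose in 22 and fell in 7 of 58 (14 to 20 higher and 3 to 7 lower with 1 floxed library left out), with a median of 0.23, and in WT 6 rose and 31 fell. The change was above WT for 35 histone genes, but for 9 to 33 with 1 floxed and 14 to 47 with 1 WT library left out. WT mESC after OHT replicate 1 had the lowest median histone level, 12.7 CPM against 31.0 CPM in replicate 2, and without it the count above WT was 17. Hist2h2bb, which shares 53.6% of 50-base words, rose from 194.7 and 221.1 to 582.4 and 576.7 CPM.

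**Figure D4:**
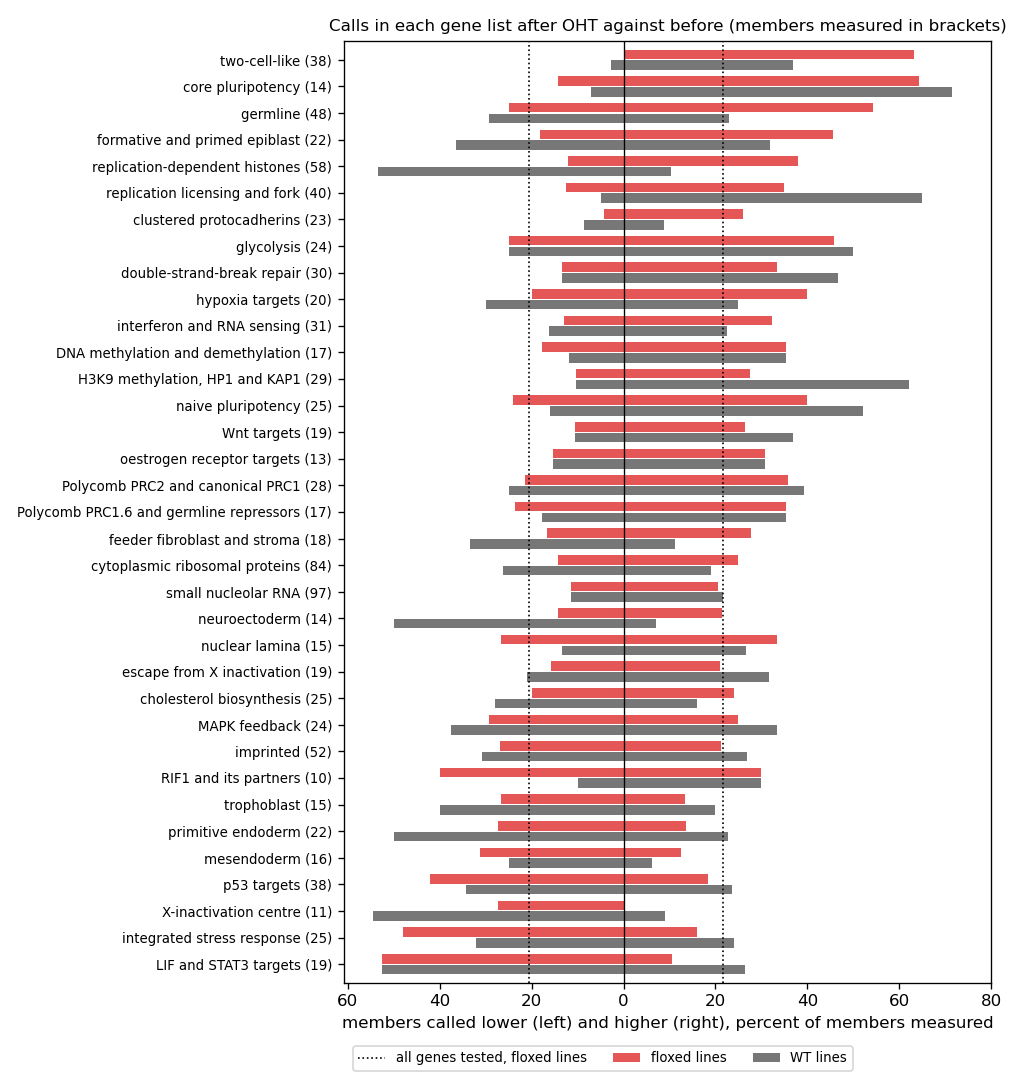
Percent of measured members (number in brackets) called lower to the left and higher to the right, for 35 gene lists in floxed lines (red) and WT lines (grey), ordered by the difference of the floxed percents. Dotted lines give the 20.6% lower and 21.6% higher over all genes tested in floxed lines. The two-cell-like and core pluripotency lists have the longest red bars to the right.

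Imprinted genes gave 11 higher and 14 lower of 52, shares near the 21.6% and 20.6% of all genes tested, with 14 and 16 in WT. They gave 5 to 9 higher and 6 to 8 lower with 1 floxed library left out. Ndn rose from 17.02 and 17.7 to 47.2 and 47.9 CPM with WT at 16.8 and 16.4 CPM before and 18.1 and 20.6 CPM after, and Mest rose from 17.7 and 24.2 to 63.6 and 64.8 CPM, as in WT. Plagl1 fell from 132.0 and 139.2 to 78.7 and 95.9 CPM.

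Of 679 tested X-linked genes 200 rose (29.5%) and 129 fell in the floxed lines, where 21.3% of 16399 autosomal genes rose and 20.7% fell. In WT 15.3% of X-linked genes rose and 28.3% fell, against 24.5% and 23.5% of autosomal genes. In the floxed lines the median change was 0.06 for X-linked and -0.01 for autosomal genes. Summed X-linked counts were 5.07% and 4.91% of autosomal counts in F/F and 5.05% and 4.78% in KO. That share thus did not rise. In WT it was 5.31% and 5.40% before and 5.04% and 5.06% after OHT. The change was above the WT change for 97 X-linked genes (14.3%), against 3.86% of autosomal genes, and below it for 17 (2.50%). The count above WT was 78 without WT mESC after OHT replicate 1, 62 to 71 with 1 floxed and 63 to 124 with 1 WT library left out, where 213 to 387 and 273 to 1238 autosomal genes were above WT. The difference of the medians was 0.07, and 0.05 to 0.09 with 1 floxed library left out. Xist, the RNA that coats the silenced X chromosome, stood at 35.2 and 27.4 CPM before and 30.5 and 21.4 CPM after (-0.28 ± 0.09, edgeR adjusted p = 0.024), and the ranges overlapped. The change of Xist did not pass without the line block (edgeR adjusted p = 0.16), with only the 8 mESC libraries (0.053), or without the KO library of line 16.9 (0.43), the F/F library of line 15.10 (0.19) or that of line 16.9 (0.071). In WT Xist rose from 16.96 and 21.8 to 35.1 and 42.6 CPM, and the floxed change was below it by -1.29 ± 0.13 (edgeR adjusted p = 1.4e-05). Tsix, its antisense partner, was at 8.44 and 7.96 CPM before and 7.04 and 5.42 CPM after and did not pass (edgeR adjusted p = 0.055), and Chic1 of the same region fell from 95.5 and 85.5 to 55.1 and 49.6 CPM. The genes of Xist and Tsix lie on opposite strands over each other, and their reads may be mixed.

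**Figure D5:**
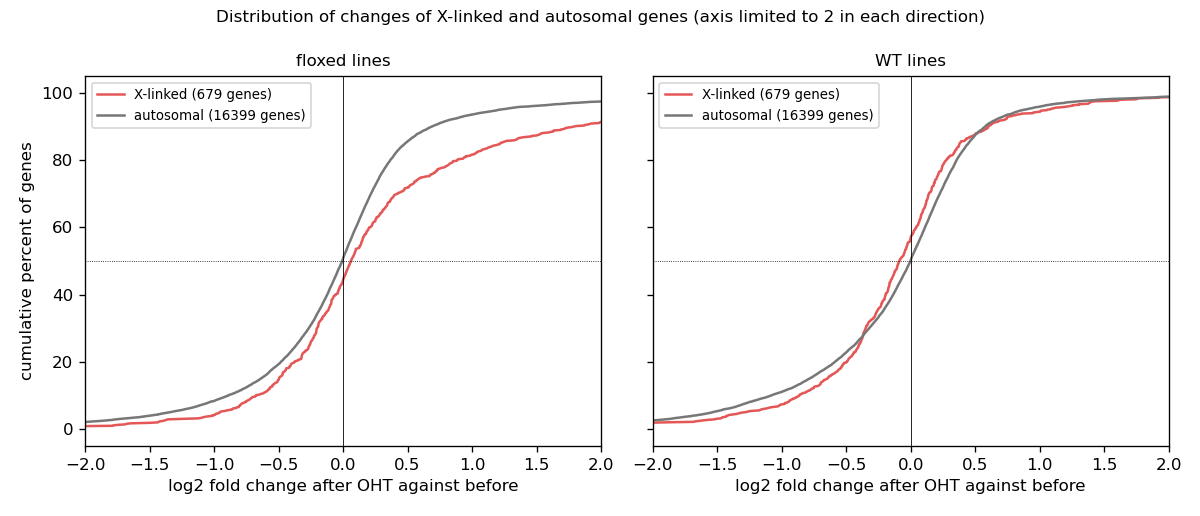
Cumulative percent of genes by log2 fold change after OHT, for X-linked (red) and autosomal (grey) genes, in floxed lines on the left and WT lines on the right. The red curve lies to the right of the grey in floxed lines. In WT lines it lies to the left around 0, and the curves cross on both sides.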

How the data were processed

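For 12 libraries the authors deposited 1 table of raw read counts, whole numbers listed by gene symbol. The submitters' processing notes list BWA, HTSeq, DESeq2 and mm9 with no versions or roles, and no source used here states the strand setting. Tests are quasi-likelihood F tests of edgeR 4.0.16 (R 4.3.3) after filterByExpr and TMM scaling, called at 0.05 after Benjamini-Hochberg adjustment. The model held the 4 cell lines as a block and, within each genotype, a term for OHT and one for EB. All 12 libraries shared 1 estimate of spread, with 4 residual degrees of freedom.

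The line block is part of the main fit because libraries before and after OHT come from the same cell line. Deviations of the lines before and after OHT correlated across genes at 0.0912 in floxed and -0.0660 in WT lines. Without the replicate block 7473 genes changed in the floxed lines.

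With 2 lines per genotype, p-values rest on the spread left after the line block. The estimate for each gene was drawn towards that of other genes (13.8 prior degrees of freedom). With 1 library per line and condition, spread between cultures of a line was not measured. Symbols were matched by name to RefSeq and GENCODE annotation, and 95 of 24391 had no match. Promoters are those of RefSeq on GRCm38.p6, used for letters only since the counts were made on mm9. TTCCCGC and CGCGTG were also counted, over all promoters only, and were not used. Named genes were Rif1, Xist and Tsix, the 10 largest changes per direction, the 6 per direction with the smallest p for the difference from WT, and up to 3 per list. The members and the 37 lists were chosen with earlier results of these data known. The lists of mitochondrially encoded and Y-linked genes held no measured member. Scripts were tested on simulated counts. Alternatives covered scaling, filter, DESeq2 1.42.0, the block, the libraries fitted, each library left out and, added after the data were seen, a GC correction.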

Additional observations from a re-analysis of the deposited data

Results flagged for a closer look

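Of the genes named by the rule, 56 had an OHT change that differed between floxed and WT lines by edgeR's test of the difference. Values are floxed minus WT on the log2 scale. The floxed change was furthest above the WT change for Usp17le 4.19, Rhox13 3.88, Slc25a31 3.82, Mageb4 3.80, Pdha2 3.40, Asz1 3.38, 4930550L24Rik 2.99, Mmp16 2.95, Chit1 2.92, 1700018B24Rik 2.88, AU022751 2.77, Hist1h2aa 2.45, Syce1 1.89, Sohlh2 1.75, Dazl 1.69, Thy1 1.34, Ndn 1.24, Rpl10l 1.20, Lefty1 1.16, Dab2 1.12. Smaller positive differences were Sox11 1.05, Ankrd37 0.99, Vim 0.97, Ccnd1 0.91, Cdh2 0.90, Gata2 0.88, Stard4 0.85, Fbn1 0.82, Scarna2 0.81, Tubb3 0.64, Lefty2 0.64, Lef1 0.64, Lamb1 0.63, Tcl1 0.61, Slc16a3 0.60, Oas1a 0.54, Hist2h2bb 0.53, Zfp296 0.53, Zfp42 0.53, Hist1h1a 0.52. The floxed change was below the WT change for Egr1 -2.48, Optn -1.72, Fos -1.55, Xist -1.29, Zfp473 -1.07, Nusap1 -0.92, Atf3 -0.85, Liph -0.85, Phf19 -0.79, Tdrd12 -0.79, Trp53inp1 -0.74, Rif1 -0.68, Fam35a -0.64, Plagl1 -0.63, Chic1 -0.49, Syne1 -0.49. Of these 56 differences 33 passed under every alternative run.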

How the results depend on the processing

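No named gene, no difference from WT and neither the Rif1 nor the X-linked value changed sign under any alternative run. Of 35 list medians 13 changed sign under at least 1 alternative, all with main values of 0.19 or less in size, among them naive pluripotency, mesendoderm, trophoblast, neuroectoderm, the PRC1.6, H3K9, break repair and fibroblast lists. The number of genes whose OHT change differs between floxed and WT lines was 516 with only the 8 mESC libraries and 2097 with no filter on low counts, against 1300. With 1 library left out it ranged from 400 to 2551. The number changed in the floxed lines ranged from 3800 to 5401 with 1 floxed library left out, against 7231, and the members of lists that changed from 294 to 363, against 474. The X-linked minus autosomal median was 0.024 with no filter, against 0.068. The causes were not tested. Without the replicate block, that is without pairing by line, 7473 genes changed in the floxed lines, 8402 in WT and 1346 in the difference, and among named genes Xist, and the differences of Slc16a3 and Scarna2, no longer passed. Rif1 passed under every alternative, with a log2 change between -0.85 and -0.68. Of 129 named genes 116 kept their side of the threshold under all alternatives, and of 56 named differences 33 did. The fit of the 4 floxed libraries alone gives no WT value and no difference. Genes under 1 CPM rest on few counts, and their folds are limited by depth.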

Other observations

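Of the lists not described above, most held calls in both directions. The shares over all genes tested were 21.6% higher and 20.6% lower in the floxed lines. Cholesterol biosynthesis had 6 members higher and 5 lower of 25 measured in the floxed lines, and hypoxia targets had 8 and 4 of 20. The 84 cytoplasmic ribosomal protein genes gave 21 higher and 12 lower, and 97 small nucleolar RNA genes 20 and 11. The nuclear lamina list gave 5 higher and 4 lower of 15, oestrogen receptor targets 4 and 2 of 13, and genes that escape X inactivation 4 and 3 of 19. With 1 floxed library left out cholesterol biosynthesis gave 2 to 3 higher and 1 to 3 lower, hypoxia targets 4 to 5 higher and 2 to 4 lower, ribosomal proteins 11 to 16 higher and 6 to 9 lower, small nucleolar RNA 10 to 14 higher and 7 to 10 lower, nuclear lamina 1 to 4 higher and 3 to 4 lower, genes that escape X inactivation 1 to 2 higher and 1 to 3 lower and oestrogen receptor targets 1 higher and 0 to 1 lower. Of 11 genes of the X-inactivation centre 0 rose and 3 fell by edgeR (1 to 3 with 1 floxed library left out). Across genes the floxed log2 fold change had a Pearson r of -0.14 with transcript GC content, and the WT change one of -0.22, where genes share libraries and are not independent replicates.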
